A study of Mus musculus with 6 samples.

Results

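The factors that copy and transcribe mitochondrial DNA were followed in RNA-seq of mouse dorsal skin. The members were the rows of the deposited table with 1 of 10 names: Tfam, Tfb1m, Tfb2m, Polg, Polg2, Polrmt, Twnk, Ssbp1, Nrf1 and Gabpa. All 10 were found among 21959 genes, and their read counts were set beside the summed counts of the 13 rows whose names begin with mt-, which are the protein-coding genes of mitochondrial DNA. The rule used the names alone and no measured value, but the members were chosen with earlier results of these data known. Male C57BL/6 mice were shaved on the back in telogen, the resting phase of the hair cycle, at 7 weeks of age. Dipropylene glycol in water (vehicle) or 3% rebamipide, a drug used to protect the gastric mucosa, was spread on the shaved skin daily for 7 days. RNA with poly(A) tails from full-thickness dorsal skin was sequenced in 3 vehicle and 3 rebamipide libraries.

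Mitochondrial DNA is a small circular genome that encodes some subunits of the respiratory chain together with ribosomal and transfer RNAs of mitochondria, and every protein that copies or transcribes it is made from nuclear genes and imported. Transcription needs the single-subunit RNA polymerase Polrmt, the DNA-packaging factor Tfam and the initiation factor Tfb2m. Replication needs the polymerase Polg with its accessory subunit Polg2, the helicase Twnk and the single-stranded DNA-binding protein Ssbp1. Nrf1 and Gabpa are transcription factors of the nucleus known to bind promoters of many such genes. Mitochondria are dense in brown adipocytes and in oxidative muscle, and sparser in white adipocytes and fibroblasts.

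The 6 libraries held 32709801 to 39915276 counts. Levels are given as CPM, counts scaled to the size of the library, which was normalized by the trimmed mean of M values (TMM), and all 14875 genes tested had a median log2 fold change of -0.17. The label skin was checked against marker genes of cell types. Krt14, a keratin of basal keratinocytes, was 1 of 4 keratinocyte markers, of 10 listed, at 0 counts in rebamipide library 3, and the summed level of the list was 133 CPM there, 2144 and 1363 CPM in rebamipide libraries 1 and 2, and 2880 to 7373 CPM in vehicle. Most of the sum in rebamipide library 3 was Itga6, at 129 CPM there and at 133 to 192 CPM in vehicle. The summed keratinocyte levels of the groups did not overlap, and 0 of the 10 markers passed the test. Of the 9 measured markers of growing hair follicles, 8 were also at 0 in rebamipide library 3. Their summed level was 729, 0.74 and 0.229 CPM in rebamipide libraries 1, 2 and 3, so library 2 was nearly without them too. In vehicle it was 13774, 5970 and 145 CPM, although the mice were described as in telogen. Brown adipocyte markers moved with treatment: 7 of 8 were called higher, with summed levels of 210 to 372 CPM in vehicle and 5065 to 12993 CPM in rebamipide, and Ucp1, the uncoupling protein that defines these cells, was at 0 counts in all 3 vehicle libraries and at 2669, 8591 and 5746 CPM in rebamipide. General adipocyte markers summed to 1465 to 4330 CPM in vehicle and 9918 to 17063 CPM in rebamipide, with 5 of 8 called higher. Slow muscle markers summed to 2.07 to 13.5 CPM in vehicle and to 290, 129 and 7.02 CPM in rebamipide, with 4 of 6 called higher, and endothelial markers summed to 249 to 607 and 1135 to 1559 CPM with 4 of 8 called higher. Fibroblast markers (12310 to 18767 and 1972 to 15795 CPM), growing hair follicle markers (145 to 13774 and 0.229 to 729 CPM) and fast muscle markers (5341 to 26498 and 274 to 34064 CPM) overlapped between groups, and none of them was called in either direction. In bulk tissue, fewer cells of a type and less RNA per cell cannot be told apart, and the part of tissue composition in the values that follow was not tested. All 6 libraries are labelled skin, but Ucp1 was at 0 in every vehicle library. Keratinocyte markers other than Itga6 were nearly absent in rebamipide library 3. The tissue sampled may thus itself differ between the groups. Every fold change below therefore compares the tissue as sampled, in which a difference of tissue and the treatment cannot be told apart.

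Promoters are shown first because Nrf1 and Gabpa are themselves members, and the promoters of the others can be searched for the letters these factors are known to prefer. All 10 members matched the promoter table of RefSeq (build GRCm38.p6), with 12 promoters of 300 bases, 250 before the transcript start and 50 from it onward. The letters CCGGAAG, the core bound by the ETS family to which Gabpa belongs, and the Nrf1 motif, GCGCA and GCGC with any base between them, were searched on both strands. CCGGAAG was found in 7 of the 12 promoters, those of 7 of the 10 members (Polrmt, Tfam, Polg, Polg2, Twnk, Ssbp1 and Gabpa), and in 8.86% of all 32851 promoters of this length. The letters hold a C followed by a G. Such pairs numbered 16 (Polg2) to 32 (Twnk) in these 7 promoters, against a median of 7 over all promoters. The share over all promoters is thus not matched for base content. In Polg, Tfam, Ssbp1, Polrmt and Polg2 the match lay 29 to 47 bases before the start. Twnk held 2 matches, 110 and 66 bases before the start, and the match of Gabpa lay 93 bases before it. The Nrf1 motif was found in Polrmt alone among the members, as 2 overlapping matches around the start, and in 4.6% of all promoters. Tfb2m, Tfb1m and Nrf1 held neither run of letters in these windows. The following 4 promoters are those of both members whose change passed the test, of Tfam, and of Tfb2m, the member with the largest fold change, each 5′ to 3′ on the strand of the gene with matches to either motif in capitals:
Polrmt (chr10:79746532-79746831, strand -): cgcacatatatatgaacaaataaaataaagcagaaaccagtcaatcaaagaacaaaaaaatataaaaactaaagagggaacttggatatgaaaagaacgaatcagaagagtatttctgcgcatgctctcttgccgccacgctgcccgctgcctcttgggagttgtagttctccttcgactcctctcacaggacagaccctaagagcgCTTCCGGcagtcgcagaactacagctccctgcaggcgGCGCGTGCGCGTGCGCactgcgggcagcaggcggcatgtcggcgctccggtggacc
Polg (chr7:79466224-79466523, strand -): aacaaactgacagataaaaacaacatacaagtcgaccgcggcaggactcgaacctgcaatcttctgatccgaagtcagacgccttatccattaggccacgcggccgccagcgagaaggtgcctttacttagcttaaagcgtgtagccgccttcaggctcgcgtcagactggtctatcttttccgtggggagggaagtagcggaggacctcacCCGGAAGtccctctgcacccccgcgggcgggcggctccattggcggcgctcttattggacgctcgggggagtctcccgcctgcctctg
Tfam (chr10:71237995-71238294, strand -): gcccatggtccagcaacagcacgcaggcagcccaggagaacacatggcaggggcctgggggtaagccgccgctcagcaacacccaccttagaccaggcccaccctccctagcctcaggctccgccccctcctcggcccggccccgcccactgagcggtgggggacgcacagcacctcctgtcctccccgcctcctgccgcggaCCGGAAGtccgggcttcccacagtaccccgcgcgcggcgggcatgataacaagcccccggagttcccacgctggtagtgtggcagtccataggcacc
Tfb2m (chr1:179546227-179546526, strand -): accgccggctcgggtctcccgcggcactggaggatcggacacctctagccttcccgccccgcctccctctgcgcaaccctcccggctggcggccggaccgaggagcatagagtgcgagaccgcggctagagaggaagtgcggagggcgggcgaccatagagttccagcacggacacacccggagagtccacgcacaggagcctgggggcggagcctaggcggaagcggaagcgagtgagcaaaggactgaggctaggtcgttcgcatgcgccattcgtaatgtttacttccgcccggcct
The Polrmt promoter held the ETS letters on the opposite strand and both Nrf1 matches within 1 unbroken stretch of capitals. The promoter of Tfb2m held no capitals, although its GC content of 67.3% was close to the 70.3% of Tfam and above the median of 52.7% over all promoters. A match is a run of letters and was not tested as a binding site. In the deposited table, whose build is GRCm39 and whose coordinates therefore differ, Polrmt (ENSMUSG00000020329) spans chromosome 10 from 79571957 to 79582415, Tfam (ENSMUSG00000003923) chromosome 10 from 71061294 to 71074110, Polg (ENSMUSG00000039176) chromosome 7 from 79095979 to 79116110 and Tfb2m (ENSMUSG00000026492) chromosome 1 from 179355620 to 179373832, all on the minus strand. Tfb1m lies on chromosome 17, Polg2 on chromosome 11, Twnk on chromosome 19, Ssbp1 and Nrf1 on chromosome 6 and Gabpa on chromosome 16. The table annotates 8 of the members to the mitochondrial nucleoid, all but Nrf1 and Gabpa.

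Among the transcription factors of mitochondria, only Polrmt was called higher by edgeR. Polrmt, the polymerase that reads both strands of mitochondrial DNA and makes primers for its replication, was at 18.8, 13.6 and 12.2 CPM in vehicle and at 27.2, 36.6 and 39.6 CPM in rebamipide. Each rebamipide library was above each vehicle library. The log2 fold change was 1.21 ± 0.27 (SE, n = 3 and 3), with an adjusted p of 0.0281 by edgeR's quasi-likelihood test with Benjamini-Hochberg adjustment over all genes. The call was kept in 2 of the 6 edgeR fits with 1 library left out.

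Tfb2m, which melts the promoter with Polrmt, had the largest fold change of the 10 members but did not pass the test. Its levels were 20.9, 20.9 and 26.6 CPM in vehicle and 28.7, 86.3 and 82.7 CPM in rebamipide. The groups did not overlap, but rebamipide library 1 lay just above the vehicle libraries and far below the other two of its group. The log2 fold change was 1.53 ± 0.43, with an adjusted p of 0.0524 by edgeR. With 1 library left out it ran from 1.30 (without rebamipide library 2, adjusted p of 0.171) to 1.90 (without rebamipide library 1, adjusted p of 0.00524), and only the last of the 6 edgeR fits passed. Tfb1m, a related methyltransferase that modifies the small ribosomal RNA of mitochondria, was at 6.33, 5.48 and 4.15 CPM in vehicle and 7.64, 10.4 and 11.1 CPM in rebamipide. These groups did not overlap either, and the log2 fold change of 0.87 ± 0.30 had an adjusted p of 0.0843 (edgeR).

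Tfam coats and compacts mitochondrial DNA and bends its promoters, and its amount is widely used as a proxy for mitochondrial DNA content. It was at 32.5, 30.2 and 30.0 CPM in vehicle, the vehicle group with the smallest SD relative to its mean, and at 30.9, 52.2 and 48.6 CPM in rebamipide. Rebamipide library 1 lay among the vehicle libraries and the other two lay above them. The log2 fold change was 0.51 ± 0.24 with an adjusted p of 0.168 (edgeR). With 1 library left out it ran from 0.37 (without rebamipide library 2, adjusted p of 0.421) to 0.71 (without rebamipide library 1, adjusted p of 0.0243), and only the last of the 6 edgeR fits passed.

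**Figure D1:**
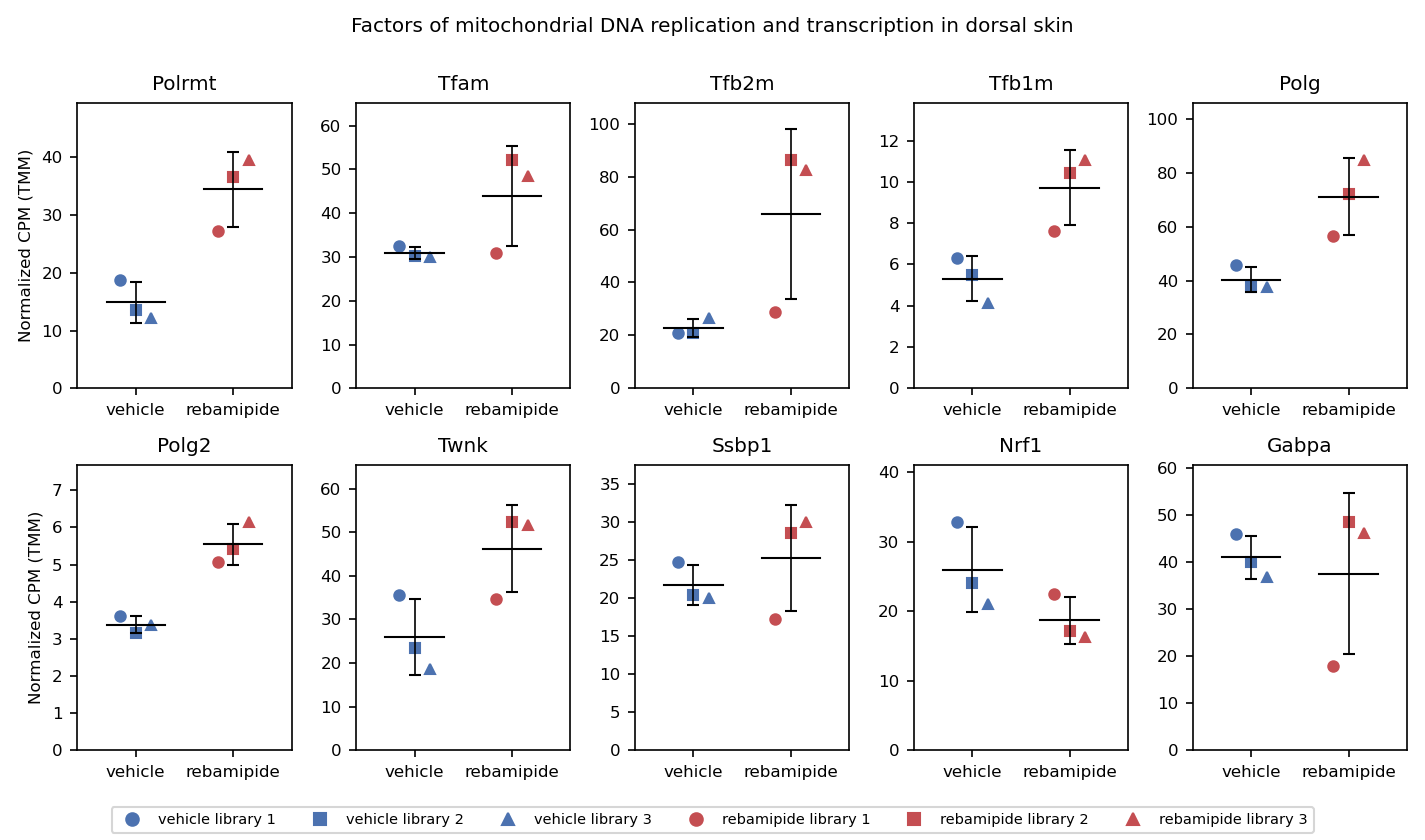
Normalized CPM (linear vertical axes from 0, a scale for each gene) of the 10 members in 3 vehicle (blue) and 3 rebamipide (red) libraries, with the mean (line) and SD (bars). Polrmt, Tfb2m, Tfb1m, Polg and Polg2 show no overlap between the groups, and rebamipide library 1 (red circle) is the lowest of its group for 9 of 10 members, as it was for 46.5% of all genes tested.

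Of the replication machinery, only the catalytic subunit was called higher by edgeR. Polg, the only polymerase known to copy the whole mitochondrial genome, was at 45.6, 37.6 and 37.7 CPM in vehicle and at 56.3, 72.3 and 84.8 CPM in rebamipide, without overlap. Its log2 fold change was 0.82 ± 0.21 with an adjusted p of 0.0430 (edgeR), and the call was kept in 1 of the 6 fits with 1 library left out. Polg2, the subunit that holds Polg on DNA, was the least abundant member, at 3.61, 3.15 and 3.38 CPM in vehicle and 5.07, 5.42 and 6.14 CPM in rebamipide. All 3 rebamipide libraries were above vehicle, and the log2 fold change of 0.71 ± 0.27 did not pass the test, with an adjusted p of 0.106 (edgeR).

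Twnk, the helicase that opens DNA ahead of Polg, was at 35.6, 23.6 and 18.7 CPM in vehicle and at 34.8, 52.3 and 51.6 CPM in rebamipide. Vehicle library 1 was just above rebamipide library 1, so the groups overlapped by that pair alone. The log2 fold change was 0.83 ± 0.31 with an adjusted p of 0.1 (edgeR). Ssbp1, which covers the displaced strand, was at 24.8, 20.4 and 20.0 CPM in vehicle and 17.3, 28.6 and 30.0 CPM in rebamipide. Its groups overlapped, with rebamipide library 1 the lowest of all 6, and the log2 fold change was 0.22 ± 0.27 with an adjusted p of 0.567 (edgeR).

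Neither nuclear regulator passed the test. Nrf1 was at 32.8, 24.1 and 21.0 CPM in vehicle and at 22.5, 17.2 and 16.3 CPM in rebamipide. Only rebamipide library 1 lay within the vehicle range, and the log2 fold change was -0.48 ± 0.26 with an adjusted p of 0.219 (edgeR). Gabpa, the DNA-binding subunit of GABP, was at 46.1, 40.1 and 37.0 CPM in vehicle and at 17.9, 48.6 and 46.3 CPM in rebamipide. Its rebamipide libraries lay on either side of the vehicle group, the log2 fold change was -0.13 ± 0.39 with an adjusted p of 0.826 (edgeR), and without rebamipide library 1 the sign turned, to 0.21.

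In all, 2 of the 10 members (Polrmt and Polg) were called higher and 0 were called lower by edgeR. Over all genes tested, 14.1% were called higher and 6.51% lower. The groups did not overlap, with rebamipide higher, for 5 of the 10 members, and the same held for 24.5% of all genes tested, while 24.0% did not overlap with rebamipide lower. The members had a median log2 fold change of 0.77 against -0.17 for all genes, and 9 of the 10 members, all but Nrf1, lay above the latter. At an unadjusted p under 0.05, 6 members were higher and 0 lower, against 20.9% and 18.8% of all genes. DESeq2 called 5 higher (Polrmt, Tfb2m, Polg, Tfb1m and Polg2) and 0 lower, against 18.3% and 17.0% of all genes tested.

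The 2 calls were lost in most fits with 1 library left out, in which edgeR also called fewer genes overall. Of all genes tested, 10%, 0.0% and 11.4% were called higher without vehicle libraries 1, 2 and 3, and 0.00652% without rebamipide library 2, so without vehicle library 2 or rebamipide library 2 no member's call could be read. With edgeR, the call of Polg was lost when any 1 library but rebamipide library 1 was left out, with a log2 fold change of 0.68 to 0.97 over the 6 fits and an adjusted p of up to 0.149. The call of Polrmt was lost without vehicle library 2, vehicle library 3, rebamipide library 2 or rebamipide library 3, with a log2 fold change of 1.09 to 1.39 and an adjusted p of up to 0.116. Without rebamipide library 3, whose keratinocyte markers other than Itga6 were nearly absent, Polrmt was at 1.11 and Polg at 0.68. In that fit 0 of the 10 members passed, against 6.6% of all genes higher. Without rebamipide library 1, 5 members were called higher (Polrmt, Tfb2m, Polg, Tfam and Tfb1m) against 18.3% of all genes higher.

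Within each group, most members had the same library at the end of the range. Vehicle library 1 was the highest of its group for 9 of 10 members, all but Tfb2m, against 45.7% of all genes tested, and rebamipide library 1 was the lowest of its group for 9 of 10, all but Nrf1, against 46.5%. Both held for 8 of the 10 members and for 22.6% of all genes, a difference that was not tested. Vehicle library 1 also had the highest summed level of growing hair follicle markers of all libraries (13774 CPM), and rebamipide library 1 the highest of fast muscle markers (34064 CPM) and the lowest of brown adipocyte markers among rebamipide libraries (5065 CPM). The part of these tissues in the order was not tested. The closest pair of members was Polg and Polg2, whose log2 CPM, centred on the mean over the 6 libraries, differed by a root mean square of 0.12. Tfb2m and Nrf1 were the farthest apart, at 1.17. By the same measure the tested genes nearest to Polrmt were Neurl4 (0.06), Noa1 (0.07) and Aplp2 (0.07), those nearest to Polg were Chid1 (0.04), Mrps10 (0.05) and Crtc2 (0.05), and those nearest to Tfam were Csnk2a1 (0.01), Zbtb43 (0.02) and Tent2 (0.03), all over 6 libraries.

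**Figure D2:**
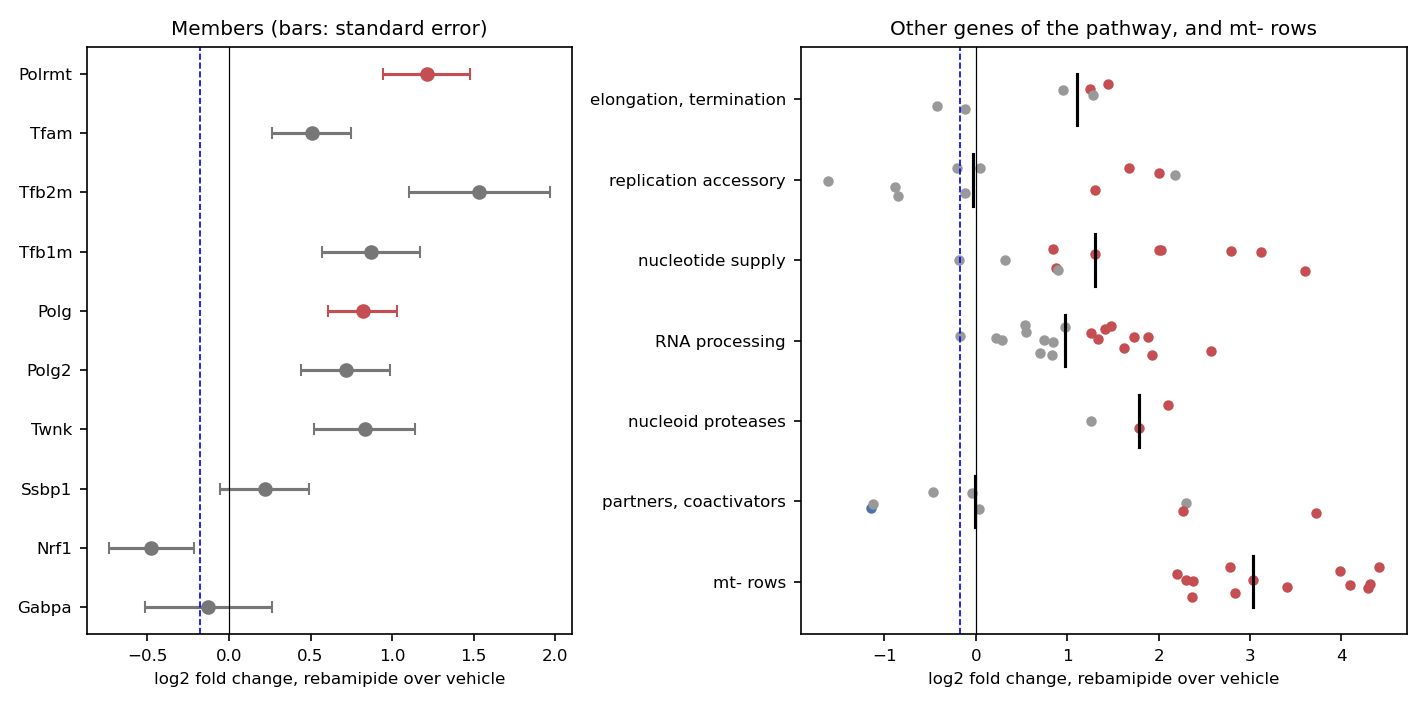
Log2 fold change, rebamipide over vehicle, of the 10 members with the standard error (left) and of 57 other genes of the pathway and 13 mt- rows by functional group (right, a point for each gene, vertical bars for group medians). Red marks genes called higher and blue genes called lower by edgeR, grey the rest, and the dashed line is the median of -0.17 over all genes tested; the mt- rows lie at 2.21 to 4.42, right of all members.

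Levels can be compared between genes only per length, and only as well as that length is known. The annotated lengths ran from 2804 bases (Tfb2m) to 10742 (Polg), with Ssbp1 at 8360. The order that follows depends on them, and other lengths were not tried. In FPKM, which divides counts by gene length and library total, the order in vehicle was Tfb2m (10.04), Gabpa (8.97), Tfam (8.64), Twnk (8.08), Polg (4.66), Polrmt (3.95), Ssbp1 (3.23), Nrf1 (3.14), Tfb1m (1.83) and Polg2 (0.962), as means of 3 libraries. Neighbours in this order overlapped over the libraries except Twnk and Polg, Nrf1 and Tfb1m, and Tfb1m and Polg2. In rebamipide the order was Tfb2m (18.3), Twnk (9.16), Tfam (7.84), Polrmt (5.87), Polg (5.28), Gabpa (5.15), Ssbp1 (2.40), Tfb1m (2.15), Nrf1 (1.49) and Polg2 (1.02). Here only Tfam and Polrmt, Gabpa and Ssbp1, and Nrf1 and Polg2 did not overlap. Tfb2m was thus the highest and Polg2 the lowest member by mean FPKM in both groups, with Gabpa passing from the second place to the sixth and Polrmt from the sixth to the fourth. Gabpa was at 2.92, 6.37 and 6.15 FPKM in rebamipide libraries 1, 2 and 3, so its place there rested on library 1.

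The templates' own transcripts changed by far more than the factors. The 13 mt- rows took 2.59%, 4.28% and 5.36% of all counts in the vehicle libraries and 13.3%, 19.4% and 22.0% in the rebamipide libraries. The groups were far apart, with means of 4.08% ± 1.40 and 18.2% ± 4.46 (SD, n = 3 each), a ratio of 4.47. A two-sided exact permutation test of the means returned p = 0.1, which is the lowest value possible with 3 against 3 libraries. All 13 rows were called higher by edgeR, against 14.1% of all genes, with log2 fold changes of 2.21 (mt-Nd6, adjusted p of 0.0299) to 4.42 (mt-Co2, adjusted p of 0.0199) and a median of 3.03. These calls depended on single libraries: with 1 left out, edgeR called 0 to 13 of the rows higher, 0 without vehicle library 2 or rebamipide library 2, where it called 0 and 1 of all genes, and 3 without vehicle library 1 and 8 without rebamipide library 3. In the same 6 fits all 13 log2 fold changes stayed above 0, with medians of 2.72 to 3.34, and 12 or 13 rows were at an unadjusted p under 0.05, while DESeq2 called 13 in each and limma-voom 1 to 13. The row of mt-Co1 made up 59.4% to 65.1% of the mitochondrial counts in each library. With that row taken out of the mitochondrial counts and out of the library totals, the rest took 1.67% ± 0.60 and 7.87% ± 2.44 of the remaining counts. Nuclear copies of mitochondrial DNA can share reads with these rows, so levels of single mt- rows are uncertain. Brown adipocyte markers, summed to 210 to 372 CPM in vehicle and 5065 to 12993 CPM in rebamipide, were high in the same libraries, and their part in the mitochondrial share was not tested. The rows count RNA, and copies of mitochondrial DNA were not measured by these data.

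Against this, the 10 members together took 0.0341%, 0.0270% and 0.0255% of all counts in vehicle and 0.0231%, 0.0306% and 0.0315% in rebamipide. The groups overlapped and their means were 0.0289% ± 0.00459 and 0.0284% ± 0.00463 (SD, n = 3 each; exact permutation test, p = 1). The 84 listed nuclear-encoded subunits of the respiratory chain, by contrast, took 0.956%, 1.15% and 1.31% in vehicle and 3.29%, 3.88% and 4.29% in rebamipide, a ratio of 3.35, without overlap (exact permutation test, p = 0.1). Of 82 such subunits tested, 74 were called higher and 0 lower by edgeR, against 14.1% and 6.51% of all genes, and their median was 2.23 on the log2 scale. Without vehicle library 2 or rebamipide library 2 edgeR called 0 of them, with medians of 2.22 and 2.19 and 74 at an unadjusted p under 0.05 in each fit. Over the 6 libraries left out, DESeq2 called 74 to 76 and limma-voom 36 to 75 higher. Mitochondrial counts per count of these subunits were 2.71, 3.71 and 4.11 in vehicle and 4.04, 5.00 and 5.12 in rebamipide, which overlapped, with a log2 difference of 0.44 (exact permutation test, p = 0.2).

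**Figure D3:**
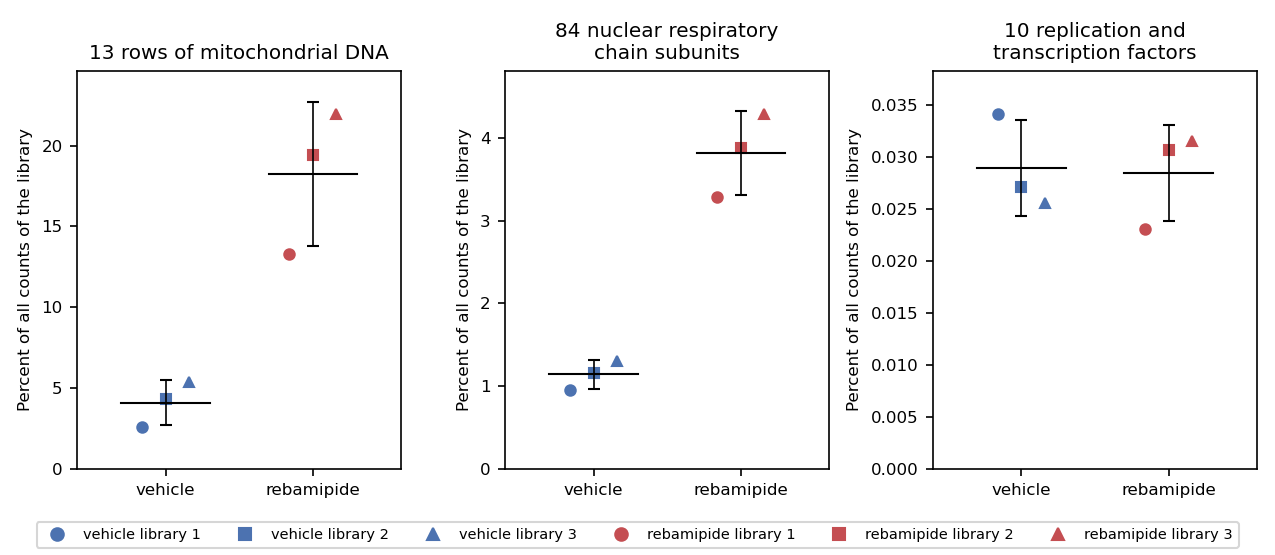
Percent of all counts of each library taken by the 13 mt- rows, by 84 nuclear-encoded respiratory chain subunits and by the 10 members (linear axes from 0, a scale for each panel), in 3 vehicle (blue) and 3 rebamipide (red) libraries, with the mean (line) and SD (bars). The first panels separate the groups, at 4.08% against 18.2% and 1.14% against 3.82%, and the third does not, at 0.0289% against 0.0284%.

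A ratio of counts within a library does not depend on how libraries are scaled, so the mitochondrial counts were divided by the counts of each member. For Tfam there were 624, 1150 and 1477 mitochondrial counts per Tfam count in vehicle and 4626, 4982 and 5988 in rebamipide. All 3 rebamipide ratios were above vehicle, and the ratio of the geometric means was 5.07. For Polrmt the ratios were 1076, 2560 and 3633 in vehicle and 5253, 7097 and 7351 in rebamipide, again without overlap, and 3.01-fold higher. For Polg they were 444, 923 and 1175 in vehicle and 2539, 3598 and 3432 in rebamipide, 4.02-fold higher. The same held for each of the 10 members: all rebamipide ratios were above all vehicle ratios, by 2.69-fold (Tfb2m) to 9.69-fold (Nrf1), with a median of 4.15. Among 14862 tested genes other than the mt- rows, 92.7% showed the same separation, so it was shared by nearly all genes and was not particular to the members. Each exact permutation test gave p = 0.1 and an adjusted p of 0.1 over the 10 members, so none could pass a threshold of 0.05. With the nuclear-encoded respiratory chain subunits in place of the mt- rows, the ratios were also higher for all 10 members, by 1.98-fold to 7.13-fold, and the groups were separated in this way for 89.2% of the other genes tested. The 10 ratios share their numerator and are not independent of each other.

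**Figure D4:**
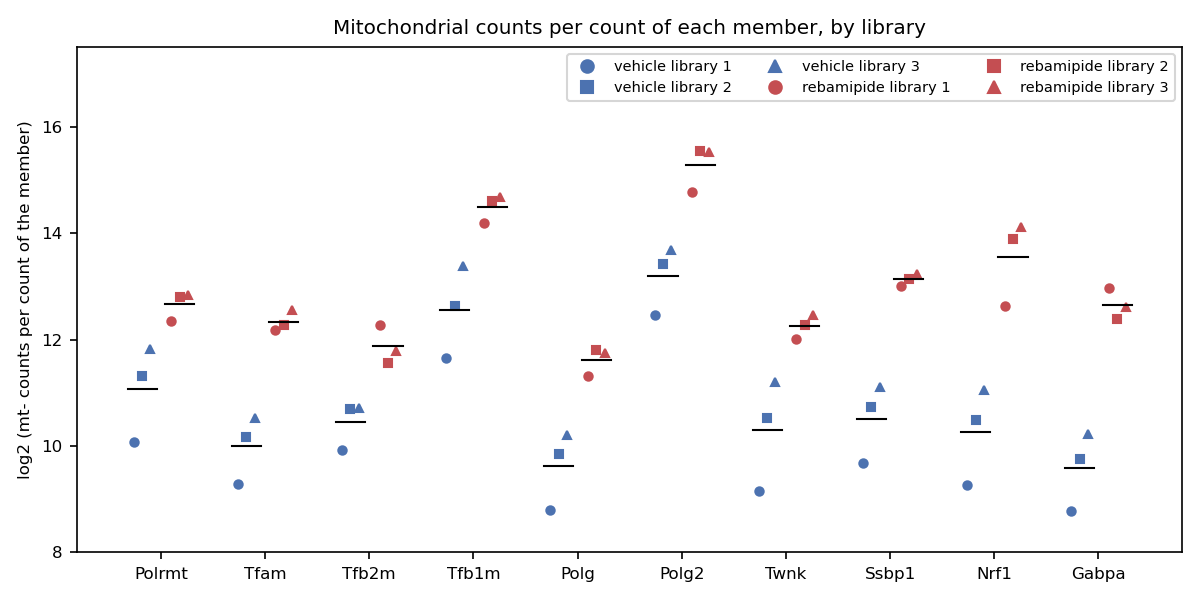
Mitochondrial counts per count of each member (log2 scale) in the 3 vehicle (blue) and 3 rebamipide (red) libraries, with group means as lines. For each of the 10 members the 3 red points lie above the 3 blue ones, by the least for Tfb2m (2.69-fold) and the most for Nrf1 (9.69-fold), and the groups were separated likewise for 92.7% of all other genes tested.

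Members that work as partners were also set against each other. Polrmt counts per Tfam count were 0.580, 0.449 and 0.406 in vehicle and 0.881, 0.702 and 0.815 in rebamipide, a log2 difference of 0.75 without overlap. Twnk counts per Ssbp1 count were 1.44, 1.15 and 0.936 in vehicle and 2.01, 1.83 and 1.72 in rebamipide, a log2 difference of 0.67, and Polrmt counts per Polg count were 0.324 to 0.413 in vehicle and 0.467 to 0.507 in rebamipide. These 3 of 5 pairs did not overlap between groups (exact permutation test, p = 0.1, the lowest possible, and adjusted p = 0.167 over 5 pairs). Count ratios did not overlap, in either direction, for 48.9% of all pairs among the 13953 tested genes with counts in every library and for 62.2% of the 45 pairs among the members, so such a separation was common and was not particular to these pairs. For the subunits of the replicative polymerase, Polg counts per Polg2 count were 12.7, 11.95 and 11.2 in vehicle and 11.1, 13.3 and 13.8 in rebamipide, a log2 difference of 0.09 with overlap (exact permutation test, p = 0.5 and adjusted p = 0.5). Tfb2m counts per Tfb1m count overlapped as well, with a log2 difference of 0.51 (exact permutation test, p = 0.3 and adjusted p = 0.375).

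Around the members, a list of 59 other genes of mitochondrial DNA maintenance and expression was read from the same fit. This list, too, was chosen with earlier results of these data known. Of 57 tested, 26 (45.6%) were called higher and 1 lower by edgeR, against 14.1% and 6.51% of all genes tested, and the list's median was 0.98 on the log2 scale. The remaining 2, Slirp and Tymp, were near 0 counts. Left out 1 at a time, the libraries mattered here too: without vehicle library 2 or rebamipide library 2, edgeR called 0 of the list higher. Of all genes it called 0 and 1 (0.00652%) in these fits, with 4116 and 4062 at an unadjusted p under 0.05, and DESeq2 and limma-voom called 26 to 40 and 1 to 34 of the list higher over the 6 libraries left out. Without rebamipide library 3, 17 were called.

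Of the groups of this list, the genes of nucleotide supply had the largest share called higher, 8 of 11. They are enzymes apart from the carriers Slc25a33 (2.79, adjusted p of 0.0137) and Slc25a36 (0.90, adjusted p of 0.212) and the membrane protein Mpv17 (1.30, adjusted p of 0.0209). Suclg1, the shared subunit of succinyl-CoA ligase, was at 69.5, 80.1 and 102 CPM in vehicle and 680, 1136 and 1237 CPM in rebamipide, a log2 fold change of 3.60 (adjusted p of 0.00939). Sucla2 and Suclg2, its partner subunits that make ATP or GTP, changed by 3.13 and 2.02 (adjusted p of 0.0130 and 0.0107). These 3 subunits also belong to an enzyme of the citric acid cycle.

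Of the proteases of the nucleoid, the complex of mitochondrial DNA and its proteins, 2 of 3 were called higher. Lonp1, which degrades Tfam not bound to DNA, changed by 1.79 (adjusted p of 0.00993) and Clpp, the proteolytic chamber, by 2.11 (adjusted p of 0.00993). Clpx, the unfoldase of Clpp, was at 1.26 with an adjusted p of 0.0555. Of the genes of RNA processing and stability, 9 of 19 were called higher, among them Hsd17b10, a subunit of mitochondrial RNase P, at 1.93, Tbrg4 at 1.73, Fastk at 1.62 and Grsf1, a protein of RNA granules, at 1.41 (adjusted p of 0.0117, 0.0139, 0.0107 and 0.0217).

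Of the accessory factors of replication, 3 of 10 were called higher. They were Atad3a, a membrane ATPase, at 2.00, Top1mt, the mitochondrial topoisomerase, at 1.68 and Mgme1, an exonuclease, at 1.31 (adjusted p of 0.0208, 0.0139 and 0.0256), and the group's median was -0.03. Of the elongation and termination factors, 2 of 6 were called higher, Mterf4 at 1.45 and the elongation factor Tefm at 1.25 (adjusted p of 0.0122 and 0.0256), and Mterf3 was at 0.96 with an adjusted p of 0.0964.

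Of the 8 other nuclear regulators listed, among them partners of Nrf1 and Gabpa and coactivators, 2 were called higher and 1 lower, and their median was -0.01. Ppargc1b, a coactivator of mitochondrial biogenesis, was at 3.21, 3.88 and 3.85 CPM in vehicle and 28.6, 56.4 and 59.5 CPM in rebamipide, a log2 fold change of 3.72 (adjusted p of 0.00939). Esrra, the nuclear receptor it works with, changed by 2.27 (adjusted p of 0.00958). Gabpb2, 1 of the activating partners of Gabpa, fell from 92.5, 75.3 and 59.1 CPM to 25.6, 43.1 and 33.8 CPM, a log2 fold change of -1.15 (adjusted p of 0.0346), and Hcfc1 was at -0.04 (adjusted p of 0.918). All adjusted p-values of these groups are from edgeR over all genes tested. The summed brown adipocyte and adipocyte markers were high in the same 3 libraries, although single markers such as Elovl3 (181 CPM in vehicle and 66.3 CPM in rebamipide) and Lep (76.0 and 52.7 CPM) did not follow the sums. The slow muscle sum was high in rebamipide libraries 1 and 2 and within the vehicle range in rebamipide library 3. The part of these tissues in the changes was not tested.

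The scale chosen for the libraries moved the members together. Divided by total counts alone, which the mt- rows enter, all genes had a median of -0.78 and the members 0.13, and 0 members were called higher and 1 lower (Nrf1, -1.08, adjusted p of 0.0460, edgeR), against 8.46% and 25.2% of all genes. On that scale Polrmt was at 0.57 and Polg at 0.18, and Tfam and Ssbp1 turned to -0.14 and -0.43. With the mt- rows left out of the totals the median of all genes was -0.56 and that of the members 0.37, and 0 were called in either direction, against 9.66% higher and 15.7% lower of all genes. TMM without the mt- rows gave nearly the values of TMM with them, and the same 2 calls. Relative to the median of all genes, the members' median was 0.94 higher with TMM, 0.91 with total counts and 0.93 with total counts without mt- rows.

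**Figure D5:**
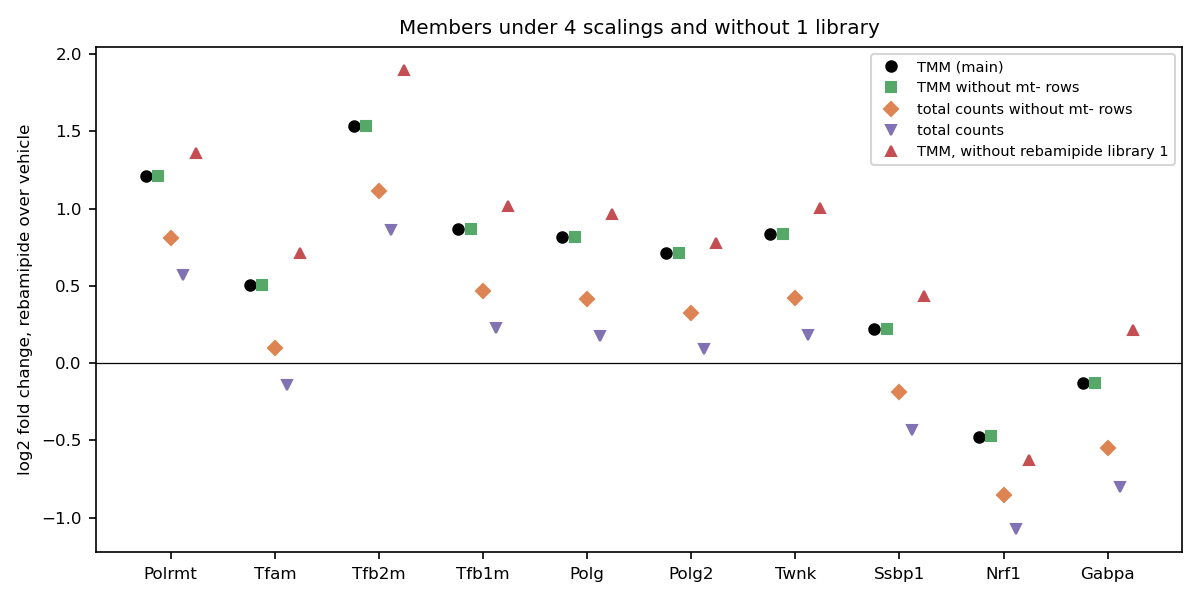
Log2 fold change, rebamipide over vehicle, of the 10 members under TMM (black), TMM without mt- rows (green), total counts without mt- rows (orange), total counts (purple) and TMM without rebamipide library 1 (red). Between TMM and total counts all 10 points move down, and without rebamipide library 1 all but Nrf1 move up: Tfam runs from 0.51 to -0.14 and Polrmt from 1.21 to 0.57 between TMM and total counts.

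In the deposited table, 5 members overlap a gene on the opposite strand: Tfb1m and Tiam2 share 12089 bases, Polg and Fanci 4034, Twnk and Mrpl43 780, Gabpa and Atp5j 701, and Polg2 and Milr1 542. These are overlaps of whole gene spans, introns included. The sources used here do not state whether the libraries marked strand, so how reads from shared bases were counted is not known. Fanci was at 4.71 CPM in vehicle and 1.03 CPM in rebamipide, with a log2 fold change of -2.19 (adjusted p of 0.113, edgeR), and Tiam2 at 24.9 and 7.78 CPM, with -1.67 (adjusted p of 0.117, edgeR). Milr1 was at 3.35 and 1.83 CPM (-0.87, adjusted p of 0.504, edgeR). Mrpl43 was at 10.5 and 15.3 CPM (0.54, adjusted p of 0.126, edgeR), and Atp5j at 124 and 171 CPM (0.46, adjusted p of 0.192, edgeR). The fitted values of Polg, Tfb1m and Polg2 thus had the opposite sign to those of their neighbours, as did that of Gabpa, while Twnk and Mrpl43 had the same sign.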

How the data were processed

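The members and lists were chosen with earlier results of these data known. The authors deposited 1 table of raw read counts per gene and FPKM values, computed by the authors from the counts and gene length. Per the labels' processing notes, fastp 0.22.0, HISAT2 2.1.0, HTSeq 0.9.1 and the build GRCm39 were used; annotation release and strand setting are not given in the sources used here. All 12 value columns were matched to samples and no row lacked a gene. Counts were tested in R 4.3.3 with edgeR 4.0.16 (TMM, filterByExpr, quasi-likelihood test, Benjamini-Hochberg, adjusted p under 0.05) on 14875 genes; all 10 members passed the filter on low counts. DESeq2 1.42.0, limma-voom and limma 3.58.1 on log2(FPKM + 1), with a pseudocount of 1, were alternatives, as were other scalings, filters and libraries left out. On simulated data edgeR recovered 93.5% of 200 genes changed 4-fold, with 8 false calls among 14763 genes. The spread of counts in those data was set by a size parameter of 10. Recovery at the spread between the deposited libraries was not tested. Single values and ratios were compared by two-sided exact permutation tests in SciPy 1.17.1. Each group is described as 3 mice, and p-values measure the spread between these libraries. The named genes are all members, up to 3 genes of each pathway group with the smallest p-values and its most abundant gene, the mt- rows with the largest and smallest fold change, and the 3 genes nearest to Tfam, Polg and Polrmt by centred log2 CPM (0.1 added). Genes overlapping a member were named by position. Outside this rule, Slc25a33, Slc25a36, Mpv17, Slirp, Tymp, mt-Co1, Krt14, Itga6, Ucp1, Elovl3 and Lep were chosen after their values were seen. Promoters are from RefSeq GRCm38.p6, which is another build than that of the table, so no coordinates were joined.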

Additional observations from a re-analysis of the deposited data

How the results depend on the processing

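The number of members called higher, 2 with edgeR, was 5 with DESeq2 and 0 with total counts, with total counts without mt- rows and with limma on log2(FPKM + 1), the last against 9.42% of all genes. It was 0 to 5 with edgeR, 1 to 8 with DESeq2 and 0 to 4 with limma-voom when 1 library was left out, with 0.0% to 18.3%, 13.3% to 23.8% and 1.4% to 18.1% of all genes called higher in these fits, where DESeq2 and limma-voom with a library left out were chosen after seeing the data. Members called lower, 0 with edgeR, were 1 (Nrf1) with total counts and with FPKM, the latter against 32.3% of all genes. For the pathway list, the 26 called higher became 0 to 34 with edgeR, 26 to 40 with DESeq2 and 1 to 34 with limma-voom (13 without rebamipide library 3) when 1 library was left out. The 1 called lower became 3 with DESeq2, 7 with total counts, 2 with total counts without mt- rows, 8 with FPKM and 3 at the thresholds of the study (unadjusted p under 0.05, log2 fold change past 1), and 0 to 1, 1 to 6 and 0 to 2 with the 3 tools and 1 library left out.

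The same-numbered libraries did not deviate together (correlations of -0.02, -0.04 and 0.00 over 14875 genes), so the numbers were not taken as pairs. With the replicate number as a block, edgeR called 0 members higher, against 9.63% of all genes, and 18 higher and 0 lower of the pathway list.

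The sign turned for Tfam with total counts (-0.14) and FPKM (-0.13), for Ssbp1 with total counts (-0.43), total counts without mt- rows (-0.19) and FPKM (-0.32), and for Gabpa without rebamipide library 1 (0.21 with edgeR, where the 6 fits ran from -0.35, 0.23 with DESeq2 and 0.22 with limma-voom). Hcfc1 ranged from -0.66 to 0.27 over all alternatives and turned with limma-voom (0.012) and the block (0.012), without vehicle library 1 (0.26, 0.27 and 0.26 with edgeR, DESeq2 and limma-voom, where the edgeR fits ran from -0.23), without rebamipide library 2 (0.0042 with DESeq2 and 0.048 with limma-voom) and without rebamipide library 3 (0.011, 0.036 and 0.068). The cause of these turns was not tested. The ratios of mitochondrial counts per member count and the mitochondrial share kept their direction under every alternative run, the share's log2 fold change at 1.92 to 2.41 with 1 library left out. Leaving out mitochondrial rRNA rows could not be run, since the rows named mt- hold protein-coding genes only. Recovery on simulated data was measured for 4-fold changes, and no member changed by as much.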
